A study of Mus musculus with 40 samples.

Results

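The comparison concerns the livers of male mice, and asks for each gene whether the change brought by calorie restriction differed between mice with and without a deletion in the growth hormone receptor gene Ghr. The quantity is a difference of differences on the log2(value + 1) scale, the restricted minus ad libitum change in d3 males minus the same change in WT males, and is called the interaction below. Its members are 20 of the 40 livers in the series, 5 in each of 4 male groups, and it was computed for the 13776 of 17724 genes with a mean normalized count of at least 10 over all 40 livers. A positive interaction means that the gene went up more, or down less, with restriction in d3 than in WT males.

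All animals were C57BL/6NJ mice. WT denotes the wild-type Ghr genotype and d3 the homozygous genotype d3/d3, in which exon 3 of Ghr, part of the extracellular domain of the receptor, is deleted. The d3 cohort was bred by in vitro fertilization with sperm of d3/d3 males, and the number of founder lines is not given in the sources used here. AL groups had food ad libitum and CR groups received 40% calorie restriction for 30 days after weaning at 30 days of age, with death at about 2 months of age, although the extraction notes give an age of 28 to 34 days. The 4 male groups are therefore WT AL, WT CR, d3 AL and d3 CR, and the 4 female groups of the same kind are used only where a difference from the males is tested.

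Growth hormone is released by the pituitary in well separated pulses in male rodents and more continuously in females, and the liver reads this pattern through the growth hormone receptor, JAK2 and the transcription factor STAT5. The pattern sets a large part of the sex difference of the liver, in which male mice make major urinary proteins and a set of male-biased enzymes, and females a set of cytochrome P450s, sulfotransferases and transporters. The liver also has a circadian clock, in which CLOCK and BMAL1 (gene Arntl) activate the Per, Cry, Nr1d1, Ciart and Dbp genes, and restricted feeding shifts its phase when meals come at a fixed hour.

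Recovered reads assigned to the 17724 genes kept numbered 21132490 to 38944650 in the 20 male libraries, with a median of 34679378. The full sequencing depth is not known from them. Replicate numbers follow accession order and pair no animals, and the labels used here name no batch and no time of day at which the livers were taken. The running numbers in the sample titles, whose meaning is not given, are 13 to 51 in WT AL, 41 to 86 in WT CR, 8 to 77 in d3 AL and 87 to 150 in d3 CR males, so that d3 CR holds the 5 highest and any effect tied to these numbers cannot be told apart from the interaction. Skeletal muscle transcripts were high (mean log2 level of at least 8 over the 17 muscle genes measured of 18 listed) in 8 male libraries, 1 in WT AL, 2 in WT CR, 2 in d3 AL and 3 in d3 CR. Summed levels of these genes ran from 454 to 82520 normalized counts in WT AL, from 575 to 481811 in WT CR, from 361 to 269787 in d3 AL and from 290 to 252438 in d3 CR, while the summed level of the 8 hepatocyte markers ran from 3092887 to 5292470 over all 20 livers. Adipocyte markers also varied, with a mean log2 level of 3.42 to 10.07 in WT CR, where 1 liver was above 8, and of 3.22 to 10.31 in d3 CR, where 4 were; their median interaction was 1.96, with 0 of 8 called. Exocrine pancreas markers were high in 1 liver each of WT AL, WT CR and d3 CR. Fits with a muscle covariate and without the muscle-rich libraries are given below. The part of adipocytes and exocrine pancreas in the results was not tested. Fewer cells of a type and less RNA per cell cannot be told apart in such bulk samples.

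The promoters of the 3 genes called in the interaction are shown first, with that of the clock gene Per3, which is described beside Ciart. The windows are the 250 bases before the start of each gene in RefSeq, on GRCm38.p6. They were searched on both strands for the E-box CACGTG, to which CLOCK and BMAL1 bind, for the D-box TTATGTAA, to which the factor DBP binds, and for the STAT5 motif TTCNNNGAA. Capitals mark the motifs found.
Ciart (chr3:95882229-95882478, minus strand): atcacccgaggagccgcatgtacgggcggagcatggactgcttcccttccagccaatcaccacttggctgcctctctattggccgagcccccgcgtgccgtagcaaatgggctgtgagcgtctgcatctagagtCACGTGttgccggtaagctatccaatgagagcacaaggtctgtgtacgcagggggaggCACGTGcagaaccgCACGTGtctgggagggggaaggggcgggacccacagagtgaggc
Tle3 (chr9:61372116-61372365, plus strand): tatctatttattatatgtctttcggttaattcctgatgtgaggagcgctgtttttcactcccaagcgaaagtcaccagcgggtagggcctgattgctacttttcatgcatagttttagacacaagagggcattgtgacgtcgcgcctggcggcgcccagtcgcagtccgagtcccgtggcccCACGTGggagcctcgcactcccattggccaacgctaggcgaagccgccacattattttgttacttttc
Cyp2b13 (chr7:26061245-26061494, plus strand): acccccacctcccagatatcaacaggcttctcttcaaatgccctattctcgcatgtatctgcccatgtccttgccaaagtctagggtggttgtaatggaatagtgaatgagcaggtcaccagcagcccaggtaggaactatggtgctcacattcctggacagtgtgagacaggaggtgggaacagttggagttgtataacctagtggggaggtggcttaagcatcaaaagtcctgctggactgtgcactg
Per3 (chr4:151044666-151044915, minus strand): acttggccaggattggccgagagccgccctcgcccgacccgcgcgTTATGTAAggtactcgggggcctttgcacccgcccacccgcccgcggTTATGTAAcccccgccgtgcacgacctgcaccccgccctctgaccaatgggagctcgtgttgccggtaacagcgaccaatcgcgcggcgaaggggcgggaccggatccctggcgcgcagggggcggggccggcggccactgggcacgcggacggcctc
The Ciart window holds 3 E-boxes, which begin 116, 58 and 44 bases before the start. Tle3 holds 1 E-box, 68 bases before its start, and Per3 holds 2 D-boxes, 205 and 158 bases before its start. No STAT5 motif was found in these 4 windows and none of the 3 motifs in that of Cyp2b13. Among all 32851 windows of this length, 6.02% held the E-box, 7.02% the STAT5 motif and 0.82% the D-box. Of the 89 named genes with a window, 14 held the E-box, 11 the STAT5 motif and 2 the D-box, Per3 being 1 of these 2. Most of these windows are not shown, so the D-boxes of Per3 are a description and do not stand for the named genes. A match describes the letters only, and binding was not measured here.

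Calorie restriction itself changed many genes in both genotypes, and the interaction was small beside it. In WT males 2961 genes (21.5%) were called at an adjusted p under 0.05 (limma with Benjamini-Hochberg adjustment over the 13776 genes), 1390 higher (10.1%) and 1571 lower (11.4%) on CR. In d3 males 2686 genes (19.5%) were called, 1240 higher (9.0%) and 1446 lower (10.5%). Of the 1390 genes that rose in WT, 1359 (97.8%) had a change of the same sign in d3 and 787 (56.6%) were also called. Of the 1571 that fell in WT, 1549 (98.6%) had the same sign in d3 and 991 (63.1%) were also called. Seen from d3, the genes called in both are 63.5% of those that rose and 68.5% of those that fell. No gene was called in opposite directions. The WT and d3 responses come from different livers, and Pearson's r between them across genes was 0.773, given as a description because genes are not independent replicates.

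**Figure D1:**
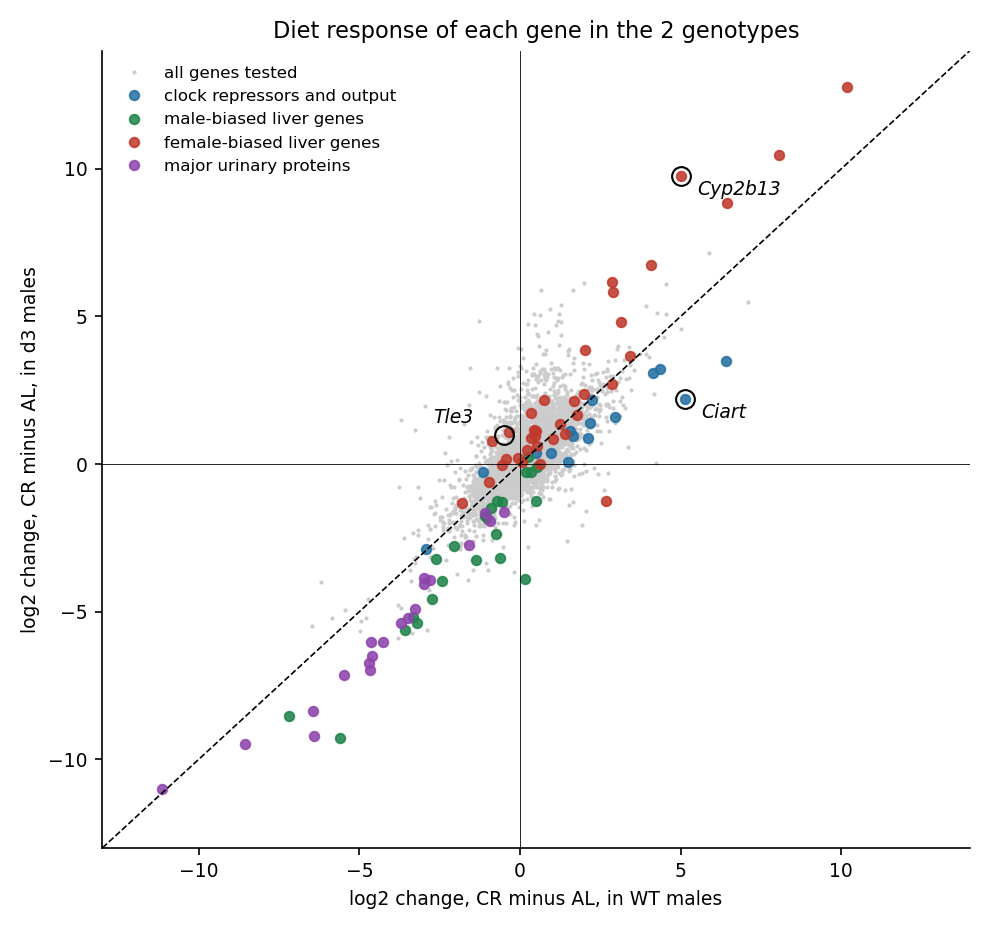
The log2 change from AL to CR is plotted for each of the 13776 genes in WT males (horizontal) against d3 males (vertical), with 4 gene lists in colour, a dashed line of equal change and rings around the 3 genes called in the interaction. Most genes lie along the line; male-biased genes and major urinary protein genes lie below it, many female-biased genes above it, and the clock genes with large changes in WT below it.

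In the interaction 3 genes (0.0218% of those tested) were called, Tle3 and Cyp2b13 higher and Ciart lower. At an unadjusted p under 0.05 there were 556 genes (4.04%). The median standard error of the interaction was 0.267 on the log2 scale and the median of its absolute size 0.169, so that most genes had an interaction smaller than its error. Split by diet, the genotype difference was called for 6 genes (0.0436%) on AL and 19 (0.138%) on CR, and 0 genes were called on both. At an unadjusted limma p under 0.05 there were 1121 genes (8.14%) on AL and 1106 (8.03%) on CR. In the authors' deposited table the order was the reverse. There 55 of 11659 genes had an adjusted p under 0.05 on AL and 34 of 16465 on CR. These splits use the same 20 livers as the interaction and are its components, not separate evidence.

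**Figure D2:**
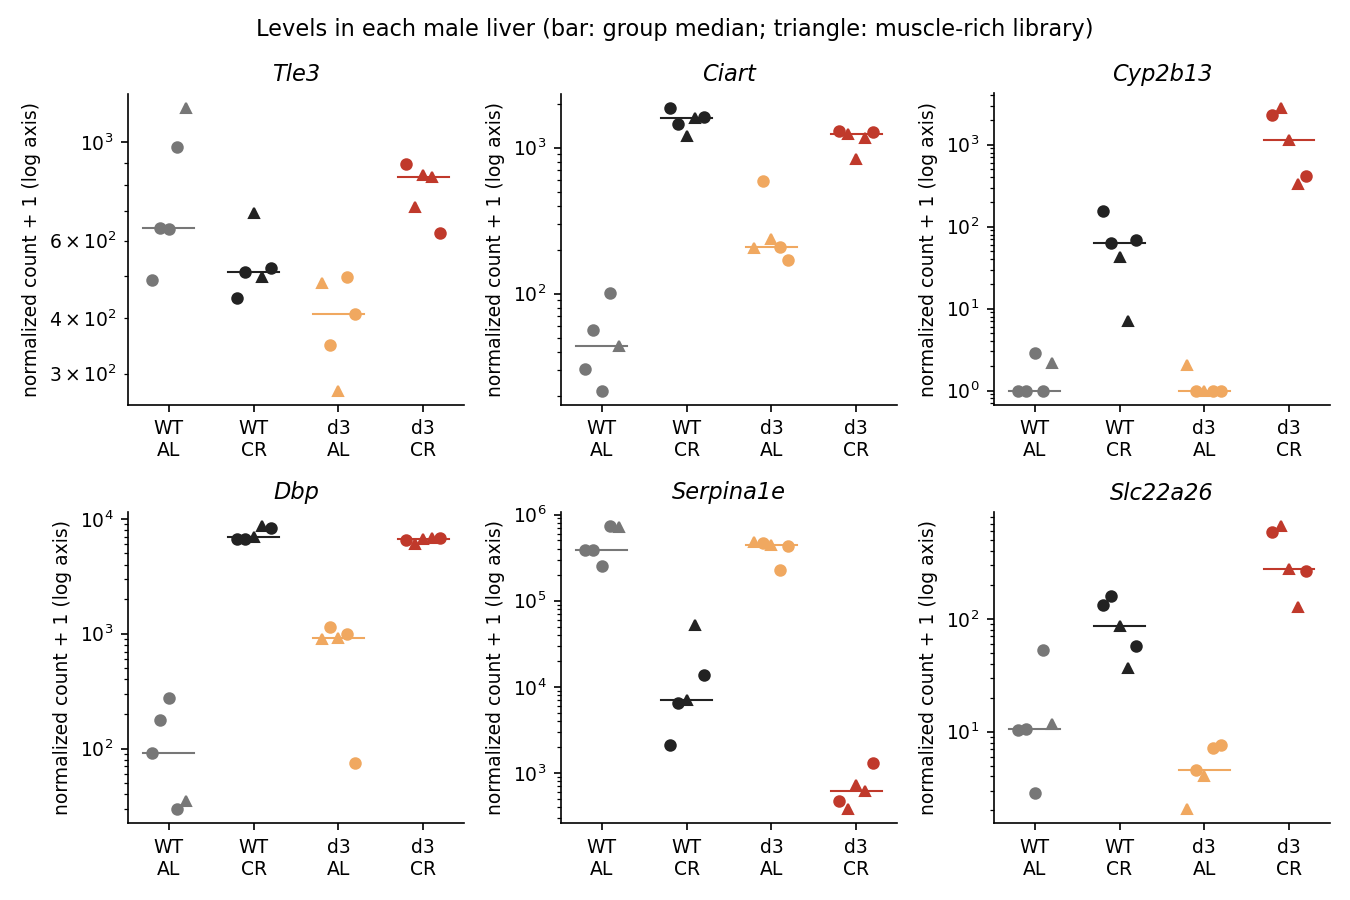
Normalized count plus 1 (log axis) of 6 genes in each of the 20 male livers, with bars at group medians and triangles for muscle-rich libraries. Tle3 is mostly lower on AL and higher on CR in d3. Ciart separates the genotypes on AL, as does Dbp but for d3 AL replicate 5, which lies within the WT range. Cyp2b13 and Serpina1e separate the genotypes on CR.

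Tle3 encodes a corepressor of the Groucho family that is recruited by DNA-bound transcription factors (ENSMUSG00000032280, GRCm38 chromosome 9, 61372366 to 61418497, plus strand). In replicates 1 to 5 its level was 488, 639, 637, 975 and 1197 normalized counts in WT AL livers, and 444, 508, 693, 496 and 520 in WT CR livers. In d3 AL livers it was 480, 348, 274, 496 and 408, and in d3 CR livers 893, 712, 844, 834 and 624. All 5 d3 CR livers lay above all 5 d3 AL livers, while the WT groups overlapped and leaned the other way. The highest WT AL values were those of replicates 4 and 5. Replicate 5 was the muscle-rich WT AL liver, with a summed exocrine pancreas level of 63762 normalized counts and an adipocyte mean log2 level of 8.41. Replicate 4 had the highest mean log2 level of acute phase genes in WT AL, 15.56 against 11.94 in replicate 3. The part of these traits in the Tle3 result was not tested. Group means were 787 ± 290 in WT AL, 532 ± 94.5 in WT CR, 401 ± 92.6 in d3 AL and 782 ± 111 in d3 CR (SD, n = 5 each). With restriction Tle3 rose by 0.98 in d3 (log2, limma adjusted p = 0.000242), and in WT its change was -0.50 ± 0.19 (log2, SE; limma adjusted p = 0.053). The interaction was 1.49 ± 0.27 (log2, SE; limma adjusted p = 0.0311). On AL Tle3 was lower in d3, at -0.93 (log2, limma adjusted p = 0.0495), and on CR the difference was 0.56 (limma adjusted p = 0.448).

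Tle3 was also the only gene called by limma for a difference between the male and the female interaction (1 of 13776 genes, 0.00726%; 1401 at an unadjusted p under 0.05). In females the Tle3 means were 390 ± 94.96 in WT AL, 619 ± 96.1 in WT CR, 510 ± 70.1 in d3 AL and 509 ± 63.3 in d3 CR (SD, n = 5 each). The female interaction was -0.69 ± 0.27 (log2, SE; limma adjusted p = 0.307), and the male minus female difference was 2.18 ± 0.38 (log2, SE; limma adjusted p = 0.0229). Among the 19 genes tested of a list of TLE family members and their partner factors, Tle3 alone was called in the male interaction, 9 lay above 0 and 10 below, and the list's median was -0.01. Of its relatives in that list, Tle1 had an interaction of -0.01, Tle2 of -0.57 and Tle4 of 0.66 (log2), none of them called.

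Ciart, the gene of a circadian repressor that acts on CLOCK and BMAL1 (ENSMUSG00000038550, chromosome 3, 95878503 to 95882251, minus strand), stood apart on the AL side. Its level was 29.3, 55.1, 20.7, 99.6 and 42.4 normalized counts in WT AL livers, and 203, 587, 235, 209 and 169 in d3 AL livers. In WT CR livers it was 1875, 1449, 1205, 1585 and 1613, and in d3 CR livers 1306, 1230, 836, 1159 and 1282. Every d3 AL liver was above every WT AL liver, the CR livers of both genotypes were above all AL livers, and the genotypes overlapped on CR. Ciart rose with restriction by 5.13 in WT (limma adjusted p = 6.34e-12) and by 2.19 in d3 (limma adjusted p = 0.000102) on the log2 scale. The interaction was -2.94 ± 0.56 (log2, SE; limma adjusted p = 0.0343). The genotype difference was 2.52 on AL (limma adjusted p = 0.00333) and -0.41 on CR (limma adjusted p = 0.833), both log2. In the authors' deposited table the log2 change of Ciart, d3 over WT, was 2.49 on AL (adjusted p = 7.67e-06) and -0.39 on CR (adjusted p = 0.966).

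Cyp2b13 encodes a cytochrome P450 that is female-biased in mouse liver (ENSMUSG00000040583, chromosome 7, 26061497 to 26096197, plus strand). On AL it was at or near 0 in males of both genotypes, with 0, 0, 1.88, 0 and 1.18 normalized counts in WT and 1.06, 0, 0, 0 and 0 in d3 livers. Both AL groups lie below the floor of 3 reads a library, which corresponds to 4.05 normalized counts in WT AL and 3.65 in d3 AL, so that no fold change against AL is given. On CR it was 156, 62.5, 41.9, 6.12 and 67.6 in WT livers and 2291, 2836, 1140, 327 and 412 in d3 livers, with every d3 liver above every WT liver. The CR means were 66.9 ± 55.6 in WT and 1401 ± 1124 in d3 (± SD over 5 livers), a log2 difference of 4.44 (limma adjusted p = 0.000339). The interaction passed the test (limma adjusted p = 0.0311). In females, where the gene is abundant, its means were 8778 to 15600 normalized counts in the 4 groups.

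These 3 calls lay near the threshold. With each male library left out in turn, Tle3 and Cyp2b13 were each called in 11 of 20 fits and Ciart in 7. Tle3 ran from 1.32 to 1.64 (log2, limma adjusted p from 0.00428 to 0.0817), and was no longer called without WT AL replicate 5, WT CR replicate 1, 2 or 4, d3 AL replicate 2 or 3, or d3 CR replicate 1, 2 or 3. Ciart ran from -3.24 to -2.63 (log2, limma adjusted p from 0.0142 to 0.128), and was called without WT AL replicate 2 or 4, WT CR replicate 3, d3 AL replicate 1, 4 or 5, or d3 CR replicate 4. Cyp2b13, with a limma adjusted p from 0.00773 to 0.0823, lost its call without the same libraries as Tle3, but for WT AL replicate 3 in place of WT CR replicate 1. The number of genes called was 0 without WT AL replicate 5, WT CR replicate 2 or 4, d3 AL replicate 2 or 3, or d3 CR replicate 1, 2 or 3, and 5 without d3 CR replicate 4. Fitted without the 8 muscle-rich male and 9 further muscle-rich female libraries, limma called 0 genes, with 640 at an unadjusted p under 0.05, although Tle3 was at 1.29 and Ciart at -2.99 (log2, limma adjusted p = 0.994 for both).

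Among repressor and output genes of the clock, genotype differences were larger on AL than on CR. On AL 3 of them, Ciart, Dbp and Per3, were called higher in d3, where 4 of all 13776 genes tested were. Of the 15 clock genes in this list, 13 had an interaction below 0, with a median of -0.79 against 0.003 for all genes. That median was -1.19 without WT AL replicate 4 and -0.45, with 11 of 15 below 0, without the muscle-rich libraries. Ciart was the 1 called, and 8 were lower and 1 higher at an unadjusted p under 0.05, which 4.04% of all genes tested passed. The median genotype difference of these 15 genes was 0.90 on AL and 0.04 on CR, and in all 15 the absolute difference was larger on AL. Their mean log2 level was 8.41 to 9.24 in the WT AL livers and 9.19 to 10 in the d3 AL livers, which overlap in 1 liver of d3, replicate 5. In CR livers the mean level was 10.93 to 10.99 in WT and 10.73 to 11.06 in d3.

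Dbp, a transcription factor at the output of the clock, had the same size of interaction as Ciart with a larger error. Its level was 91.6, 177, 276, 28.8 and 34.2 normalized counts in WT AL livers and 899, 1138, 920, 999 and 73.7 in d3 AL livers. It was 6682, 6665, 6917, 8632 and 8300 in WT CR and 6579, 6059, 6718, 6810 and 6742 in d3 CR livers. On AL 4 d3 livers lay above all WT livers, replicate 5 of d3 lay within the WT range, and on CR the genotypes overlapped. The interaction of Dbp was -2.94 ± 0.71 (log2, SE; limma adjusted p = 0.318), and it was not called. Without d3 AL replicate 5 the interaction was -3.68 (log2). That liver was singled out by its own Dbp value, so the fit without it is a description and not a test. On AL Dbp was higher in d3 by 2.77 (log2, limma adjusted p = 0.0153).

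Per3, a period gene of the negative limb, was also higher in d3 on AL, by 1.38 (log2, limma adjusted p = 0.0153). Its means were 128 ± 69.5 normalized counts in WT AL, 316 ± 105 in d3 AL, 2381 ± 164 in WT CR and 2878 ± 699 in d3 CR (SD, n = 5 each). Its interaction of -1.14 ± 0.35 (log2, SE) was not called (limma adjusted p = 0.887). Per1 had an interaction of -1.22 ± 0.46, and Nr1d1, which encodes the REV-ERB alpha repressor, of -1.41 ± 0.60 (log2, SE). Cry1, a cryptochrome repressor of CLOCK and BMAL1, leaned the other way, at 0.88 ± 0.31 (log2, SE). None of these was called, with limma adjusted p = 1.0 for each. Nr1d1 in d3 AL livers was 4289, 4450, 4283, 3609 and 656 normalized counts, and replicate 5 again stood below the rest.

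Of the 5 genes of the activator limb, 4 were called lower and 1 higher with restriction in WT. Of all genes tested, 11.4% were called lower and 10.1% higher there. In d3, 3 of the 5 were called lower and 1 higher, against 10.5% and 9.0% of all genes tested. Arntl, the gene of BMAL1, went from a mean of 1021 ± 246 to 19.8 ± 15.9 normalized counts in WT and from 855 ± 130 to 23.1 ± 10.2 in d3 (± SD over 5 livers), changes of -5.86 and -5.22 on the log2 scale (limma adjusted p = 8.21e-15 and 1.42e-13). Clock fell by 2.21 in WT and by 1.99 in d3 (log2, limma adjusted p = 1.07e-15 and 7.22e-15). The 5 activator genes had interactions of 0.11 to 0.64, with a median of 0.22, and 0 were called. Their genotype differences did not follow those of the repressor and output genes, with medians of -0.12 on AL and 0.21 on CR. In females, whose livers are not among the 20, the 15 repressor and output genes had a median interaction of -0.61, with 12 below 0 and 0 called.

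Etv6 and Pias3, an ETS family repressor and an inhibitor of STAT proteins, complete the 6 genes called for genotype on AL together with Tle3, Ciart, Dbp and Per3. Etv6 was lower in d3 on AL, at -0.53 (log2, limma adjusted p = 0.032), with means of 987 ± 122 normalized counts in WT AL, 671 ± 57.1 in WT CR, 685 ± 101 in d3 AL and 636 ± 61.9 in d3 CR (SD, n = 5 each). Pias3 was higher by 0.57 (log2, limma adjusted p = 0.032), with means of 290 ± 53.3, 336 ± 28.0, 428 ± 54.3 and 353 ± 45.2 in the same order. Both genes differed on AL and lay close together on CR, with interactions of 0.45 ± 0.15 and -0.50 ± 0.16 (log2, SE) that were not called (limma adjusted p = 0.959 and 0.887).

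**Figure D3:**
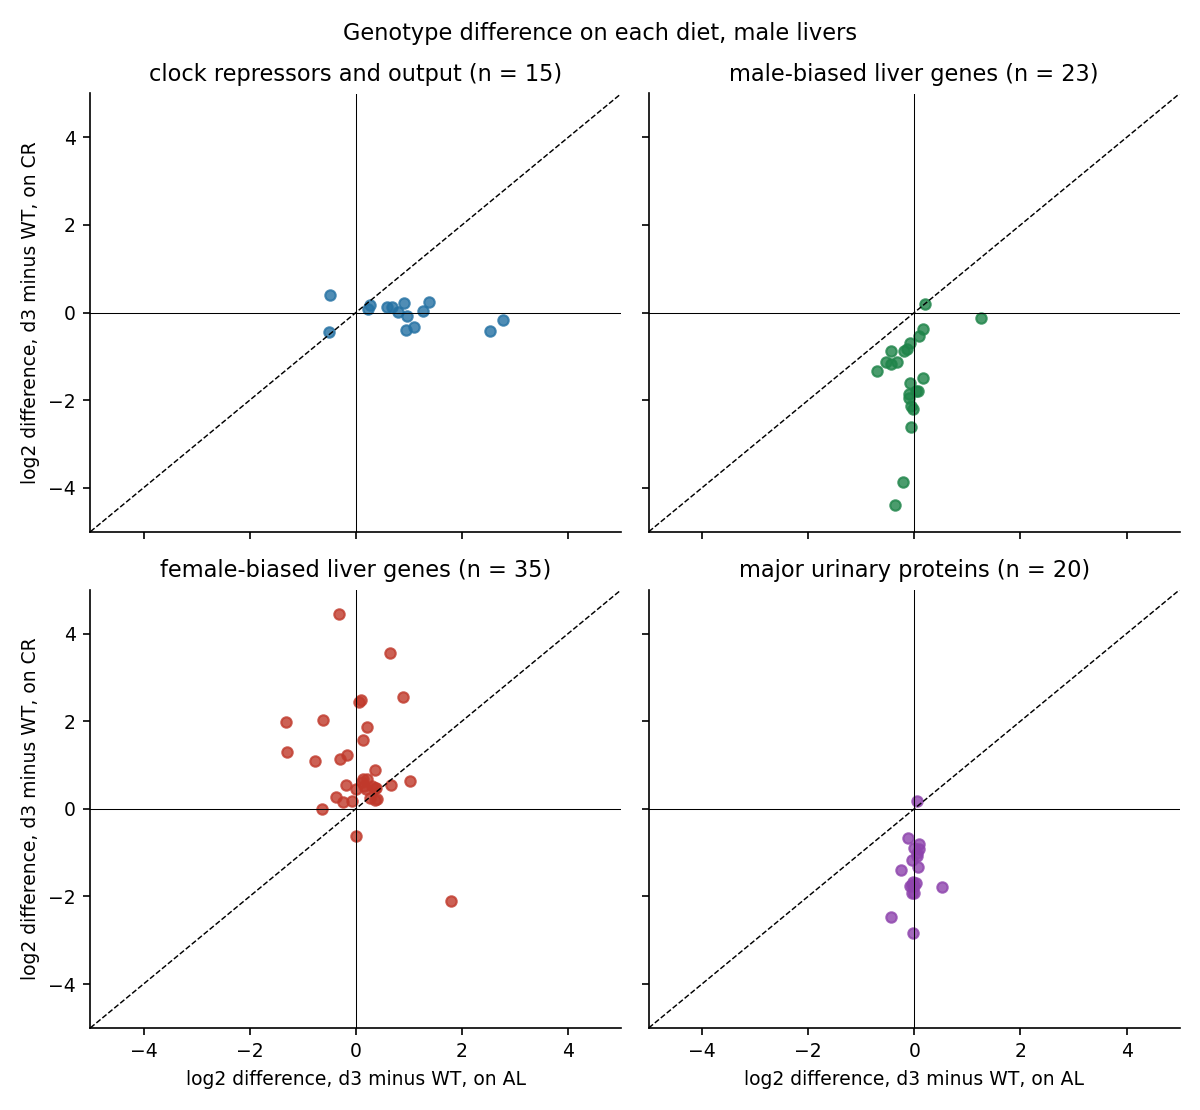
Each point is a gene of 1 of 4 lists, placed by its log2 difference between d3 and WT males on AL (horizontal) and on CR (vertical), with a dashed line of equal difference. Clock repressor and output genes spread along the horizontal axis, with a median of 0.90 on AL and 0.04 on CR, whereas male-biased genes and major urinary protein genes spread downwards and female-biased genes upwards on CR.

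The sex-biased genes showed the converse shape, close between genotypes on AL and apart on CR. All 23 male-biased liver genes tested, of 28 listed, had an interaction below 0, from -4.03 to -0.01 with a median of -1.36 against 0.003 for all genes. At an unadjusted p under 0.05, which 4.04% of all genes tested passed, 12 of the 23 were lower, although 0 were called. This list and the others were chosen with earlier results of these data known. Their counts beside those of all genes are therefore a description and not independent support. With genes that have a group at the floor of 3 reads set to their bound, the median was -1.08. The median genotype difference of the list was -0.09 on AL and -1.34 on CR, and 8 of the 23 genes were called lower in d3 on CR (0.109% of all genes tested were) while 0 were called on AL. Their mean log2 level was 10.68 to 11.64 in WT AL and 10.92 to 11.38 in d3 AL livers, which overlap, and 8.81 to 10.11 in WT CR against 7.26 to 8.57 in d3 CR livers, which do not. Restriction lowered 15 of the 23 genes in WT and 19 in d3, where it lowered 11.4% and 10.5% of all genes tested. Without d3 AL replicate 1 the median interaction was -0.84, and with library weights 22 of the 23 genes were below 0.

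Serpina1e, of the alpha-1-antitrypsin family, had the smallest p of these genes. Its level was 391600, 385200, 253000, 733600 and 710300 normalized counts in WT AL livers and 476300, 469600, 440900, 225800 and 426400 in d3 AL livers. On CR it was 2140, 6476, 7090, 51830 and 13910 in WT livers and 467, 382, 731, 622 and 1319 in d3 livers. The AL groups overlapped and every d3 CR liver was below every WT CR liver, of which replicate 4 was far above the rest. The interaction was -3.65 ± 0.83 (log2, SE; limma adjusted p = 0.183). On CR Serpina1e was lower in d3, at -3.87 (log2, limma adjusted p = 0.000699).

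Susd4, which encodes a sushi domain protein that regulates complement, had 816, 839, 976, 1187 and 1081 normalized counts in WT AL and 1117, 1305, 1101, 949 and 966 in d3 AL livers. On CR it had 518, 581, 469, 710 and 661 in WT and 187, 137, 209, 302 and 232 in d3 livers. The genotypes overlapped on AL, and on CR all d3 livers were below all WT livers. Its interaction was -1.64 ± 0.40 (log2, SE; limma adjusted p = 0.318), and it was the 1 gene called when the male groups were fitted alone (limma adjusted p = 0.0236). C6, a terminal complement component, had means of 10790 ± 2083, 1681 ± 654, 10990 ± 1678 and 494 ± 199 normalized counts in WT AL, WT CR, d3 AL and d3 CR (SD, n = 5 each) and an interaction of -1.83 ± 0.45 (log2, SE; limma adjusted p = 0.318).

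The CR ranges of Styk1, Slco1a1 and Hsd3b5, male-biased genes of differing function, are given as examples. How many of all genes tested have CR groups that do not overlap was not counted. The lack of overlap in these, and in the other genes described here, is therefore a description only. Styk1, a kinase-like membrane protein gene, ran from 79.2 to 142 normalized counts in WT CR and from 20.54 to 38.4 in d3 CR livers, with an interaction of -1.75 ± 0.46 (log2, SE). Slco1a1, an organic anion transporter gene, ran from 4315 to 14540 in WT CR and from 367 to 3362 in d3 CR livers, with an interaction of -2.57 ± 0.75. Hsd3b5, a steroid dehydrogenase gene, ran from 513 to 5895 in WT CR and from 10.8 to 479 in d3 CR livers, with an interaction of -4.03 ± 1.25. None of the 3 was called in the interaction (limma adjusted p = 0.433, 0.705 and 0.887), and each was lower in d3 on CR (limma adjusted p = 0.00485, 0.02 and 0.0192). Slco1a1 and Hsd3b5 had changes with restriction of -0.63 and 0.14 in WT, not called, and fell by 3.20 and 3.89 in d3 (log2, limma adjusted p = 3e-05 and 0.00156).

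Major urinary proteins are the pheromone carriers that male mice secrete in bulk. Of 20 of their genes tested, 19 had an interaction below 0, with a median of -1.52. At an unadjusted p under 0.05, 9 were lower, with 0 called, where 4.04% of all genes tested passed in either direction. The median genotype difference of the 20 genes was -0.01 on AL and -1.52 on CR. On CR 2 of them were called lower, where 0.109% of all genes tested were. Mup7 had a mean of 1386000 ± 182900 normalized counts in WT AL, 1395000 ± 357300 in d3 AL, 20780 ± 15940 in WT CR and 3105 ± 2194 in d3 CR (SD, n = 5 each). Its interaction was -2.81 ± 0.79 (log2, SE; limma adjusted p = 0.601). Mup20, which encodes the pheromone darcin, ran from 14970 to 44780 in WT CR and from 4309 to 12130 in d3 CR livers, with an interaction of -1.72 ± 0.55 (log2, SE; limma adjusted p = 0.944). Reads of these near-identical genes are shared out by estimation, so the level of a single member is uncertain and their 20 values are not independent.

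**Figure D4:**
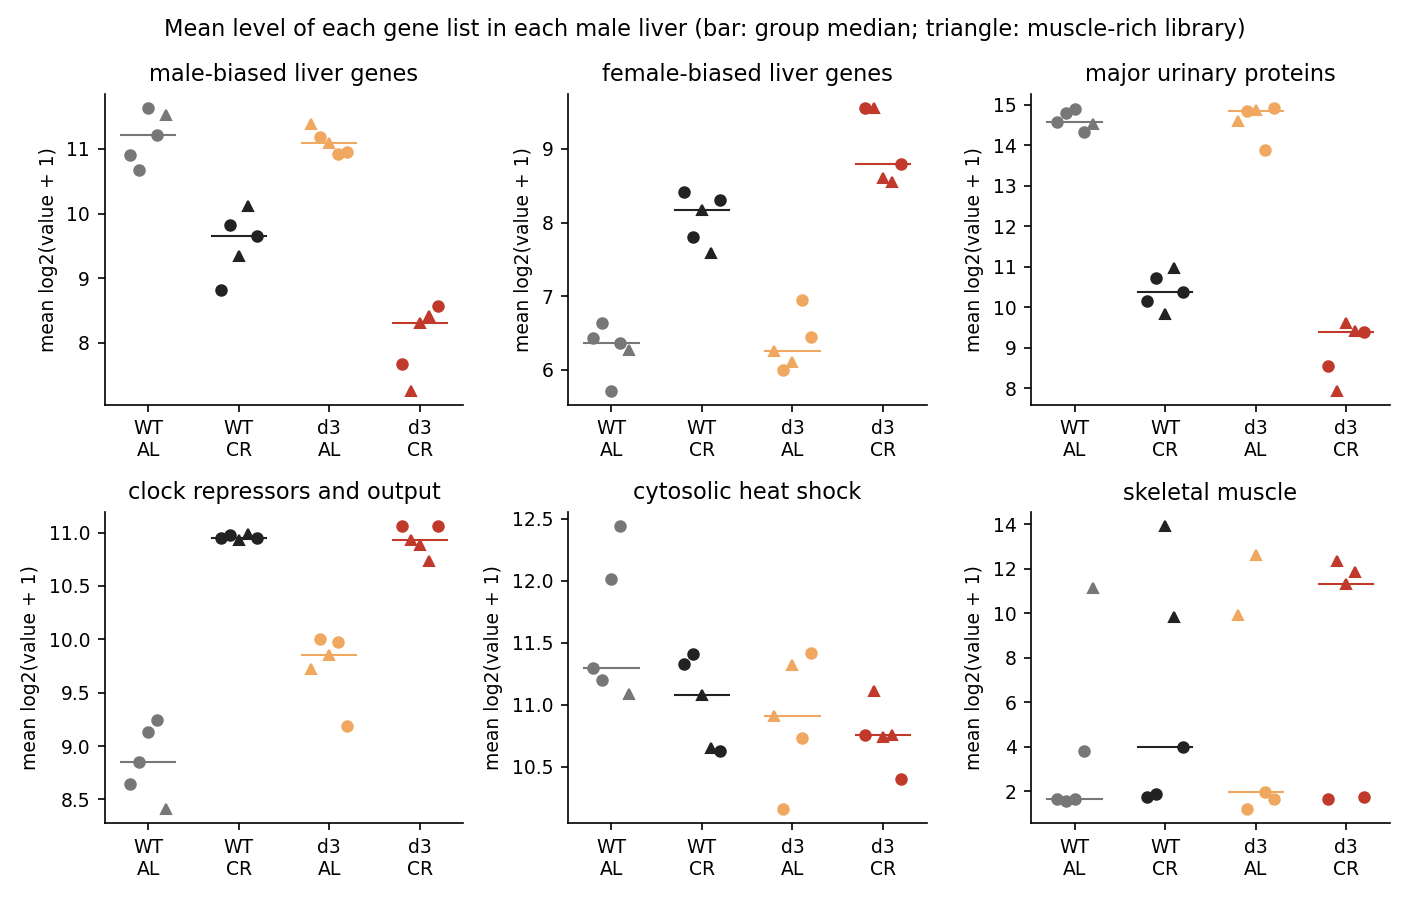
Mean log2(value + 1) over the tested genes of 6 lists in each of the 20 male livers, with bars at group medians and triangles for muscle-rich libraries. The d3 CR livers lie below the WT CR livers for male-biased and major urinary protein genes and above them for female-biased genes, the d3 AL livers lie mostly above the WT AL livers for the clock list, and the muscle list splits every group.

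Among female-biased genes the direction was mostly the reverse. Of 35 tested, out of 40 listed, 28 had an interaction above 0, with a median of 0.53. At an unadjusted p under 0.05, which 4.04% of all genes tested passed, 11 were higher and 0 lower, Cyp2b13 being the 1 called. A male group lay at the floor in 7 of the 35. Cyp2a22, a P450 gene, had the lowest value, -3.91, and is named for it after its value was seen. Restriction raised 15 of the 35 in WT and 21 in d3, where it raised 10.1% and 9.0% of all genes tested, and it lowered 1 in each. Their mean log2 level was 7.59 to 8.41 in WT CR and 8.55 to 9.56 in d3 CR livers, without overlap, and 5.72 to 6.63 against 6.00 to 6.95 on AL, with overlap.

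Slc22a26, an organic anion transporter gene, had 9.39, 9.59, 1.88, 52.4 and 10.6 normalized counts in WT AL and 1.06, 3.53, 3.03, 6.15 and 6.601 in d3 AL livers. On CR it had 133, 158, 85.7, 35.7 and 56.0 in WT and 590, 663, 277, 126.4 and 265 in d3 livers. The genotypes overlapped on both diets, d3 being mostly lower on AL and higher on CR. Its interaction was 3.30 ± 0.73 (log2, SE; limma adjusted p = 0.155). Its relative Slc22a27 had an interaction of 2.65 ± 0.69 (log2, SE; limma adjusted p = 0.408), with 90.7 to 325 in WT CR and 421 to 776 in d3 CR livers, which do not overlap. In d3 AL livers Slc22a26 had 1, 3, 2, 5 and 6 recovered reads and Slc22a27 had 2, 3, 2, 21 and 3. Most of these are near the floor of 3 reads, so the size of both interactions depends on the pseudocount.

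Cyp2a4, a steroid hydroxylase gene, rose with restriction in both genotypes, from a mean of 5.43 ± 3.19 to 584 ± 351 normalized counts in WT and from 6.51 ± 4.80 to 3009 ± 1449 in d3 (± SD over 5 livers). Its interaction was 2.38 ± 0.64 (log2, SE; limma adjusted p = 0.511). Cyp2b9 rose from 17.7 ± 33.3 to 7277 ± 3443 in WT and from 13.5 ± 30.3 to 16800 ± 4674 in d3, with an interaction of 2.60 ± 1.15 (log2, SE; limma adjusted p = 1.0). The AL means of Cyp2b9 come mostly from 1 liver in each genotype, with 0 in the other 4 d3 livers and 0 to 5.24 in the other 4 WT livers, and the interaction depends on the pseudocount, at 1.60 with a pseudocount of 10. It was 3.82 without d3 AL replicate 4 and 1.66 without WT AL replicate 3. The sulfotransferase gene Sult3a1 had a mean under the floor on AL in both genotypes and had 2.64 to 14.9 normalized counts in WT CR and 34.3 to 352 in d3 CR livers. Cux2, a female-biased transcription factor gene, had 349 to 2301 in d3 CR and 151 to 812 in WT CR livers, which overlap, and an interaction of 1.43 ± 0.63 (log2, SE; limma adjusted p = 1.0). Sequences within the Cyp2 family are close, so single members of it are uncertain.

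In female livers the male-biased list had a median interaction of -0.04, with 9 genes above 0 and 14 below, and the major urinary proteins a median of 0.56, with 16 above and 4 below. The female-biased list had a median of 0.45, with 30 of 35 above 0. The female interaction called 0 of 13776 genes (0.0%) with limma, and 1527 had an unadjusted p under 0.05. The difference between the sexes was called for no member of these 3 lists. Its median was -1.17 over the male-biased genes, -1.93 over the major urinary proteins and 0.28 over the female-biased genes (log2, male minus female).

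**Figure D5:**
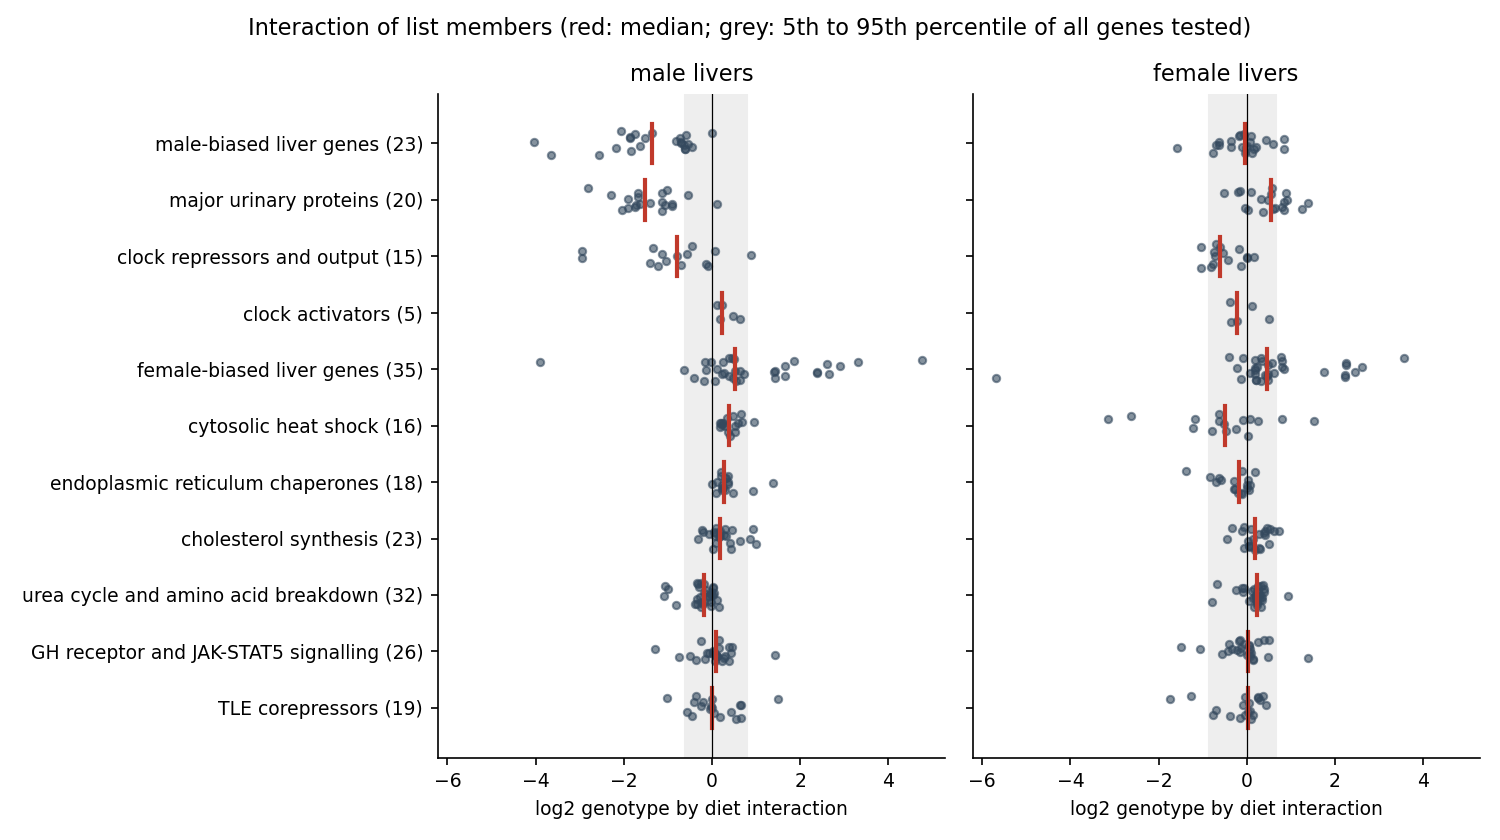
The log2 interaction of each member of 11 gene lists in male livers (left) and female livers (right), with red bars at list medians and a grey band from the 5th to the 95th percentile of all genes tested. In males all 23 male-biased genes and 19 of 20 major urinary protein genes lie below 0, and in females their medians are -0.04 and 0.56.

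The genes of growth hormone signalling itself had a small median interaction, 0.09. Of 26 tested, 18 had an interaction above 0 and 8 below, and with library weights 13 lay on each side. Values ran from -1.30 to 1.43, with 2 higher and 1 lower at an unadjusted p under 0.05 and 0 called. For genotype, 1 of the 26, Pias3, was called on AL, where 0.0436% of all genes tested were, and 0 were called on CR. Ghr, whose gene-level value cannot show the loss of 1 exon and so does not check the genotype labels, had 14330, 14120, 19540, 18860 and 12220 normalized counts in WT AL and 13930, 16390, 12980, 17210 and 10200 in d3 AL livers. It had 16770, 17440, 14670, 20900 and 15630 in WT CR and 13780, 11170, 13130, 11000 and 14650 in d3 CR livers. Every d3 CR liver was below every WT CR liver, though the closest pair nearly touched, and the AL groups overlapped. This order on CR is a description only. In the authors' deposited table the log2 change of Ghr on CR, d3 over WT, was -0.44 (adjusted p = 0.843). The interaction of Ghr was -0.26 ± 0.30 (log2, SE; limma adjusted p = 1.0).

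The growth hormone targets Igf1 and Socs2 had interactions of 0.03 ± 0.28 and 0.23 ± 0.87 (log2, SE; limma adjusted p = 1.0 for both). Igf1, the main mediator of growth, had means of 20230 ± 4276 in WT AL, 16760 ± 1989 in WT CR, 18210 ± 5360 in d3 AL and 15280 ± 2645 in d3 CR (SD, n = 5 each). Socs2, a feedback inhibitor of the receptor, ran from 110 to 1833 normalized counts within the 20 livers. Bcl6, a male-biased repressor whose expression growth hormone lowers, had 396, 553, 566, 3507 and 525 in WT CR and 948, 424, 432, 738 and 311 in d3 CR livers, and an interaction of 0.44 ± 0.66 (limma adjusted p = 1.0).

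Lists of stress and metabolic genes had small median interactions, of either sign, with 0 genes called in those given here. All 16 cytosolic heat shock genes had an interaction above 0, from 0.19 to 0.96 with a median of 0.38, and 1 had an unadjusted p under 0.05. With library weights 14 of the 16 were above 0, with a median of 0.26, and without d3 AL replicate 2 the median was 0.21. The heat shock genes differed between genotypes mainly on AL, with a median of -0.62 against -0.19 on CR. Their mean log2 level was 11.09 to 12.44 in WT AL livers, where replicates 3 and 4 were highest, and 10.16 to 11.42 in d3 AL livers, which overlap. In females the heat shock median was -0.49.

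All 18 endoplasmic reticulum chaperone genes were above 0 as well, with a median of 0.27 and 0 at an unadjusted p under 0.05. That count rests on equal weights for the libraries, since with library weights 11 were above 0 and 7 below, with a median of 0.09, and without WT AL replicate 4 the median was 0.13. Cholesterol synthesis genes had 19 of 23 values above 0, with a median of 0.19, which was -0.07 without WT CR replicate 2. Urea cycle and amino acid breakdown genes had 26 of 32 values below 0, with a median of -0.18, which was -0.31 without WT AL replicate 2 and -0.07 without WT AL replicate 3. The PPARA targets had a median of 0.04, with 18 of 28 above 0, but 0.30 with library weights (24 above 0) and 0.18 without the muscle-rich libraries (23 above 0). The insulin signalling genes had a median of -0.04, with 9 of 22 above 0, but 0.10 without the muscle-rich libraries (16 above 0). The autophagy and lysosome genes had a median of 0.01, with 12 of 21 above 0.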

How the data were processed

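Liver RNA-seq of 40 mice, 5 in each of 8 groups of sex, diet and genotype, was taken from the table of normalized values that the authors deposited. Per the submitters' processing notes, FastQC, MultiQC, Trimmomatic, kallisto, DESeq2 and the build GRCm38 were used; the sources used here give neither their versions nor how each was run. The deposited values are a normalized signal, which behaves as gene counts divided by 1 factor for each library. Dividing them by what 1 read is worth gave whole reads for 100.0% of values (tolerance 0.01). Their sum is the number of reads assigned to the genes kept in each library, and reads outside these genes are not in it. Of 17839 rows in the table, 115 repeats were dropped, leaving 17724 genes, of which 13776 had a mean of at least 10 over the 40 libraries and were tested.

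The deposited values were put on the log2(value + 1) scale and fitted with limma 3.58.1 (R 4.3.3), 1 mean for each of the 8 groups, which share 1 estimate of the spread. A fold change on this scale understates that of low genes. The p-value of each contrast was two-sided and adjusted by Benjamini and Hochberg's method over all genes tested, and a gene was called at an adjusted p under 0.05. The same contrasts gave the diet change in each genotype, the genotype difference on each diet and the difference of the interaction between the sexes. The scripts were tested on simulated data. The alternatives were a pseudocount of 10, no filter, a further median-of-ratios scaling, the male groups alone, library weights, a muscle covariate, the libraries without high muscle transcripts, each male library left out, and edgeR 4.0.16 and DESeq2 1.42.0 on the recovered reads. The authors' deposited log2 changes and adjusted p-values are quoted only where named as theirs.

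Each library is a separate mouse per the labels. Genes were named by rule: Ghr, called genes, the 12 with the smallest p in each direction above a mean of 100, the 3 with the smallest p in each list, and a set of clock and sex-biased genes; relatives of Tle3 and Cyp2a22 were added after their values were seen, and a result that the rule allows is not reported here. Members and gene lists were chosen with earlier results of these data known. Values in single livers are rounded to 4 significant digits or fewer. Gene positions are from GENCODE M21 (13753 of 13776 tested genes found), and promoter windows from RefSeq, GRCm38.p6. Estimated sharing of reads within near-identical families (Mup, Cyp2, Serpina1, Sult) makes their single members uncertain.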

Additional observations from a re-analysis of the deposited data

Results flagged for a closer look

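The difference between genotypes in the response to restriction was itself tested, and passed, for Tle3 (1.486), Ciart (-2.936) and Cyp2b13 (4.761, a value that depends on the pseudocount because both AL groups are at the floor), all on the log2 scale. The difference of that interaction between males and females passed for Tle3 alone among the 13776 genes tested, at 2.176 (log2).

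In 15 of the 116 groups of 5 livers examined over the genes named, 1 liver stood apart from the other 4 by Dixon's criterion at the 95% level. The criterion assumes normal values, while these are counts not put on a log scale, some of them near 0. The genes share the same livers and were partly chosen by their values. The count of 15 is therefore a description, and no chance rate is set beside it. Several fall in the same livers. In d3 AL replicate 5 Dbp was 73.71 normalized counts against 899 to 1138 in the other 4, and Nr1d1 was 655.7 against 3609 to 4450. In d3 AL replicate 4 Serpina1e was 225800 against 426400 to 476300, Mup7 was 773400 against 1471000 to 1663000, Slc22a27 was 25.82 against 2.12 to 3.53, and Cyp2b9 was 67.63 against 0 in all the others. In d3 AL replicate 2 Ciart was 586.6 against 169 to 235.

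In WT AL replicate 4 Per1 was 1654 normalized counts against 341 to 716 in the others, and Slc22a26 was 52.42 against 1.88 to 10.6. In WT AL replicate 3 Styk1 was 165.4 against 43.6 to 68.3, and Cyp2b9 was 77.07 against 0 to 5.24. In WT AL replicate 2 C6 was lowest, at 7192 against 11200 to 12600. In WT CR replicate 4 Serpina1e was 51830 against 2140 to 13910 and Bcl6 was 3507 against 396 to 566. In d3 CR Arntl was highest in 1 liver at 40.56 against 15.7 to 21.6.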

How the results depend on the processing

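The number of genes called in the male interaction, 3 by limma, was 1 with the male groups fitted alone (Susd4), 0 without the muscle-rich libraries, 1 with edgeR on the recovered reads (Tle3) and 13 with DESeq2, and it ran from 0 to 5 when each male library was left out in turn. DESeq2 and edgeR thus differed from limma by more than 1.5 times. With library weights 2 genes were called and with a muscle covariate 4, and the other scaling, no filter and a pseudocount of 10 each gave 3. Without the muscle-rich libraries the median interaction was -0.93 for male-biased genes, -1.36 for major urinary proteins, -0.45 for clock repressor and output genes and 0.72 for female-biased genes. With 1 male library left out those medians ran from -1.55 to -0.84, -1.75 to -1.19, -1.19 to -0.65 and 0.37 to 0.73.

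Among the genes with values in single livers, the sign changed for 3 whose interactions are small beside their errors. Igf1 was -0.10 with library weights, and ran from -0.10 to 0.184 over the left-out libraries, below 0 in 5 fits (WT AL replicate 4, -0.08; WT CR replicate 3, -0.03; d3 AL replicate 5, -0.10; d3 CR replicates 1 and 5, -0.01 and -0.05). Socs2 was -0.20 with library weights, and -0.16, -0.005, -0.11, -0.03 and -0.13 without WT AL replicate 3, WT AL replicate 5, WT CR replicate 1, WT CR replicate 4 and d3 AL replicate 5. Bcl6 was -0.054 with edgeR and -0.064 with DESeq2. The cause was not tested.

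No paired analysis was possible because the replicate numbers only follow accession order and link no animals. With 5 livers a group, a median error of 0.267 (log2) limits what the interaction can show, and the time of day of collection is not given in the sources used here.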
